A study of Rattus norvegicus with 138 samples.

Results

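The 10 genes described here encode components of inflammatory cytokine and Toll-like receptor (TLR) signalling: the ligands Il1b, Il18 and Ccl2, the receptors Il1r1, Il6r, Il6st, Tnfrsf1a and Tlr4, the adaptor Myd88 and the inhibitor Nfkbia. They were chosen by symbol from count tables of 32883 genes, and all 10 were found there, once each. RNA was sequenced from bilateral punches of 3 brainstem nuclei of 46 female rats, the nucleus of the solitary tract (NTS), the caudal ventrolateral medulla (CVLM) and the rostral ventrolateral medulla (RVLM) and every rat was sampled once in each of these regions, in 46 libraries per region. The rats were 28 spontaneously hypertensive rats (SHRs, SHR/NHsd), an inbred line that develops high blood pressure, and 18 normotensive Wistar-Kyoto controls (WKY, WKY/NHsd), housed singly and given no treatment. The WKY groups held 5, 4, 3, 3 and 3 rats and the SHR groups 5, 5, 6, 6 and 6, in order of age (8, 10, 12, 16, then 24 wk). The comparisons asked how the strains differed at each age, on average over ages and between regions. Both strains are inbred and a single sex was studied, so a strain difference could belong to any difference between the 2 lines, and its relation to blood pressure was not tested.

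In this pathway, lipopolysaccharide and molecules from damaged cells are sensed by TLR4, and TLR4 and the interleukin-1 and interleukin-18 receptors signal through the adaptor MyD88 to the transcription factor NF-kappaB. NF-kappaB is held inactive by IkB-alpha, the product of Nfkbia, which NF-kappaB itself induces. Interleukin-6 signals through its own receptor chain, IL6R, together with gp130, the product of Il6st, which is shared by several cytokines and passes the signal to JAK kinases and STAT3. In the brain, microglia and vascular cells are known sources and targets of these cytokines, and inflammatory signalling in autonomic nuclei is a known topic of hypertension research.

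Libraries held 5904570 to 17889406 counts assigned to genes, with a median of 10143018. Levels are given as counts relative to library size (CPM), with the sizes scaled by TMM over all libraries, so that the values of 1 gene can be compared across regions. Transcript lengths were not used, so that levels cannot be compared between genes. Red blood cell markers were lower in SHRs, with 2, 4 and 4 of 4 genes called in the NTS, CVLM and RVLM. Their summed level had a median of 487 CPM in SHRs against 811 in WKY rats in the NTS, 455 against 882 in the CVLM and 465 against 806 in the RVLM. Choroid plexus markers reached 4367 CPM in a WKY library of the NTS, against a WKY median of 4.82 CPM. The part of these cells in the differences below was not tested. A final digit, 1 or 2, closes the library names. The labels do not explain it. The number 2 marks 14 libraries per region, among them every library of 10 wk and none of the SHRs of 8 wk.

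Of the 10 genes, 8 passed the filter on low expression in all 3 regions (a largest regularized log value of at least 3.5 in a region), while Il1b and Ccl2 were too low to measure reliably. Il1b had a median of 4 counts per library, with 13 libraries of all 3 regions at 0 and 64 at 3 counts or fewer. It passed the filter only in the NTS, where its highest library held 97 counts. Ccl2 had a median of 7 counts, a maximum of 27, and fewer than 10 counts in 98 libraries, and it passed only in the CVLM. Il6r, Il1r1 and Tlr4 were low but measurable, with medians of 26, 30 and 32.5 counts. For the other 5, medians ran from 56.5 counts for Il18 to 1147 for Il6st.

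Reference promoter sequences are shown for Il6r, the gene whose level differed most between the strains, and for Nfkbia, the textbook feedback target of NF-kappaB. They come from RefSeq and the rat assembly GRCr8, a later build than the rn6 genome used for counting, and run 5′ to 3′ on the gene's strand over the 250 bases before the annotated start. They are reference sequence and were not read from SHRs or WKY rats. The Il6r window lies at chr2:177645210-177645459 and the Nfkbia window at chr6:78597073-78597322, both on the minus strand.
Il6r: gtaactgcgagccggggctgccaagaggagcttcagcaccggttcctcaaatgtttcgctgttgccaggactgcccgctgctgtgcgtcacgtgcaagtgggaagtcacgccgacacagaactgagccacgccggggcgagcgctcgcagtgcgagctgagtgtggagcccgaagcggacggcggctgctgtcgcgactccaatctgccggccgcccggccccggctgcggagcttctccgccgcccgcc
Nfkbia: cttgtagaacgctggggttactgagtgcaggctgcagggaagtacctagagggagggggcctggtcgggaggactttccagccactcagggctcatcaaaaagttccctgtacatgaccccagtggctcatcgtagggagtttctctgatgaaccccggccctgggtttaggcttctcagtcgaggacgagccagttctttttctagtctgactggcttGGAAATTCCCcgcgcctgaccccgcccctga
The capitals mark the match, on the opposite strand and 31 to 22 bases before the start, to the NF-kappaB motif written as GGG, then any 2 bases, then TTTCC. The same bases match its second form, GGGA, then any 2 bases, then TTCC. Of the 9 of 10 genes with a window in the RefSeq table, this was the only one with either motif on either strand, while 1.3% and 1.1% of all 33469 windows held them. The STAT motif TTCNNNGAA, present in 7.67% of windows, was matched in Myd88 alone, 22 to 14 bases before its start. The Il6r window, of 68.8% G and C, held none of these letters. A match is only a description of the sequence.

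The strain difference averaged over the 5 ages was called for Il6r in every region and for Il18 in the CVLM, all higher in SHRs, where a call means an adjusted p under 0.05 (quasi-likelihood test of edgeR, Benjamini-Hochberg adjustment over all genes of a region). This made 1 of 9 genes tested in the NTS, 2 of 9 in the CVLM and 1 of 8 in the RVLM, against 11.2%, 12.3% and 10.8% of all genes tested (5.66%, 5.28% and 5.84% higher in SHRs), so that the share called was close to that of the whole transcriptome. At single ages, 2 of 45 tests of these genes were called in the NTS (Il6r at 10 and 12 wk), 1 of 45 in the CVLM (Il6st at 24 wk) and 0 of 40 in the RVLM, against 3.5%, 4.57% and 3.53% of all such tests. In the RVLM, 4 of the 40 had an unadjusted p under 0.05, as had 8360 of the 67055 such tests of all genes, and DESeq2 called 1. A strain difference that changed with age was called for 0 genes in any region (0.0145%, 0.0224% and 0.00746% of all genes), also with DESeq2, and 1, 2 and 0 genes had an unadjusted p under 0.05. Of all genes, 1677 of 13793, 1612 of 13408 and 762 of 13411 had an unadjusted p that low. Against 8 wk, 4 of 36 age contrasts of these genes were called in WKY rats of the CVLM (Nfkbia at 16 and 24 wk, Il1r1 and Il6st at 24 wk), and 1 of 36 in SHRs of the NTS and 1 of 32 in those of the RVLM (Tnfrsf1a at 10 wk in each). For WKY rats of the CVLM 5.06% of all such contrasts were called, and for SHRs 7.18% in the NTS and 5.62% in the RVLM. The counts were 0 in WKY rats of the NTS and RVLM and in SHRs of the CVLM (0.121%, 0.103% and 6.56% of all contrasts), where 3, 3 and 4 had an unadjusted p under 0.05 and DESeq2 called 1, 0 and 1. Of all genes' contrasts there, 7988 of 55172, 9976 of 53644 and 8997 of 53632 had an unadjusted p that low. Because tissue punches hold many cell types, a lower level can mean fewer cells of a type or less RNA per cell, which cannot be told apart here.

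**Figure D1:**
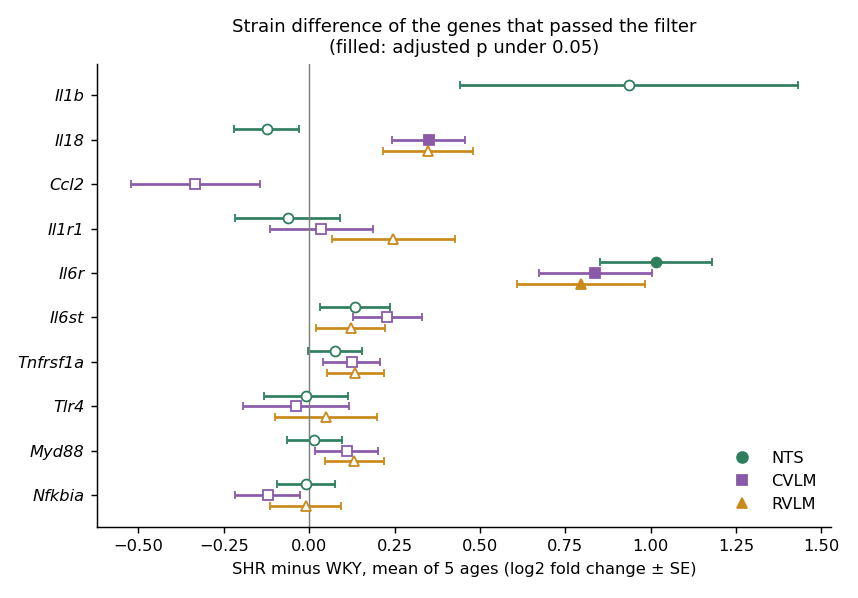
SHR minus WKY log2 fold change of the mean over the 5 ages (x axis, bars show ± SE) for each gene that passed the filter in the NTS (circles), CVLM (squares) and RVLM (triangles), with filled symbols at an adjusted p under 0.05. The 3 Il6r values lie at 0.80 to 1.01, and Il18 is at 0.35 in the CVLM and RVLM but at -0.12 in the NTS.

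Among the ligands, Il18, an interleukin-1 family cytokine that caspase-1 matures, was higher in SHRs in the CVLM. Its level there was 6.19 ± 1.48 CPM (SD, n = 28) in SHRs and 4.90 ± 1.23 CPM (n = 18) in WKY rats, and the log2 fold change was 0.35 (SE 0.11, adjusted p = 0.0236). The strains overlapped widely, but 23 of 28 SHRs were above the WKY median. In the RVLM the difference had the same size, 0.35 (SE 0.13), with levels of 5.19 ± 1.66 and 4.15 ± 1.27 CPM, and was not called (adjusted p = 0.0895). In the NTS it was -0.12 (SE 0.09, adjusted p = 0.53), with 6.24 ± 1.49 CPM in SHRs and 6.82 ± 1.34 CPM in WKY rats. The strain difference in the NTS was lower than that in the CVLM by 0.49 on the log2 scale (SE 0.15, adjusted p = 0.159) and lower than that in the RVLM by 0.47 (SE 0.15, adjusted p = 0.0793) in the fit over all libraries, so neither regional contrast was called.

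By age, the CVLM difference in Il18 was widest at 10 wk. The SHRs of that age had 8.55, 6.86, 5.12, 4.95 and 6.50 CPM and the WKY rats 4.90, 3.15, 5.46 and 3.71 CPM. At 24 wk the WKY rats had 5.52, 6.79 and 7.44 CPM, within the SHR range of 4.97 to 8.18 CPM (median 6.22). The 10-wk values of the RVLM did not overlap, with 4.65, 4.48, 5.01, 6.51 and 6.52 CPM in SHRs and 3.33, 1.59, 3.06 and 4.21 CPM in WKY rats. That RVLM difference, 0.83 on the log2 scale (SE 0.28), was not called (adjusted p = 0.169), and 2.87% of all genes tested there had every SHR above every WKY rat at 10 wk.

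Il1b, the interleukin-1 beta precursor, was at the limit of detection in most rats and stood out in 3. Among all libraries, 8 held over 20 counts, and all came from SHRs: rat 1 of 16 wk with 59, 29 and 37 counts in the NTS, CVLM and RVLM, rat 4 of 16 wk with 97, 46 and 38, and rat 2 of 24 wk with 57 in the NTS and 35 in the CVLM. The last had 8 counts in the RVLM. The other 130 libraries held 0 to 19 counts, so that in rats 1 and 4 all 3 separately punched regions of 1 brain were high together. These libraries were picked by their Il1b counts, and no test was made of them.

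**Figure D2:**
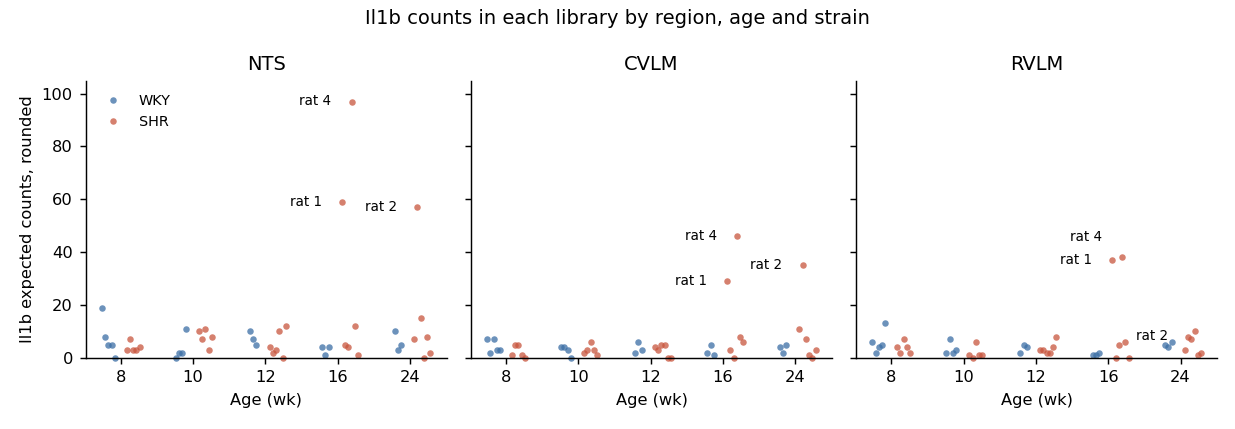
Il1b expected counts, rounded, in each library (y axis) by age in weeks (x axis) for WKY rats (blue) and SHRs (red) in the 3 regions. The SHRs 1 and 4 of 16 wk and 2 of 24 wk are named: 8 of their 9 libraries hold 29 to 97 counts, and every other library holds 19 or fewer.

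Other transcripts were read in the same 8 libraries. Neutrophil markers (S100a8, S100a9, Mpo and Camp) summed to 0.0920 to 0.511 CPM, against SHR medians of 0.396, 0.472 and 0.423 CPM in the NTS, CVLM and RVLM, and were above the median of their region in rat 2 of 24 wk in the NTS and CVLM (0.400 and 0.511 CPM). Microglial markers summed to 426 to 512 CPM in the NTS, 334 to 412 CPM in the CVLM and 411 and 444 CPM in the RVLM. Each of the 8 sums was above the SHR median of its region (425, 325 and 347 CPM). The highest microglial sum of any CVLM library was that of rat 2 of 24 wk (412 CPM). In the RVLM it was that of rat 1 of 16 wk (444 CPM). The highest NTS sum, 579 CPM, belonged to another SHR. Whether microglia had a part in the Il1b values was not tested. Tnf, the gene of tumour necrosis factor, had 0 to 17 counts against at most 13 in the other libraries. It passed 13 only in rats 1 and 4 of 16 wk in the NTS (15 and 17) and in rat 1 in the CVLM (14). The chemokine gene Ccl4 had 0 to 15 against at most 6, and passed 6 only in NTS libraries of rat 4 of 16 wk and rat 2 of 24 wk. Ccl3 had 0 to 10 against at most 7. Il1a (5 to 22 against at most 25), Il1rn (0 to 4 against 15), Nfkbiz (6 to 25 against 44) and Cxcl2 (0 or 1 against 2) stayed within the others' range. Nlrp3, whose product forms the inflammasome that activates interleukin-1 beta, had 19 to 41 counts, within the 6 to 68 counts of the others. Averaged over ages, the NTS strain difference in Il1b was 0.94 on the log2 scale (SE 0.50), with 1.29 ± 2.46 CPM in SHRs and 0.501 ± 0.463 CPM in WKY rats, and was not called (adjusted p = 0.279). Without the 3 SHRs, an alternative chosen after seeing the data, it was 0.22 (SE 0.38, adjusted p = 0.840). These rats were picked by their Il1b counts, so a smaller difference was fixed in advance. The filter takes the largest value of a region, and Il1b of the NTS reached 97 counts in SHRs and 19 in WKY rats. Its strain values in the NTS are therefore only a description.

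Ccl2, the monocyte chemoattractant, reached at most 2.35 CPM, in an SHR of 8 wk in the CVLM. In the CVLM it was at 0.923 ± 0.489 CPM in SHRs and 1.11 ± 0.378 CPM in WKY rats, with a log2 fold change of -0.33 (SE 0.19, adjusted p = 0.306). At 12 wk the SHRs had 0.217 to 0.753 CPM (median 0.500) and the WKY rats 0.695, 1.01 and 1.70 CPM, and 5 of the 6 SHRs were below every WKY rat. The log2 fold change of -1.15 (SE 0.46) rested on few counts and was not called (adjusted p = 0.267).

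Of the receptors, Il6r, the ligand-binding chain of the interleukin-6 receptor, showed the clearest strain difference. Its level was 3.65 ± 1.15 CPM (SD, n = 28) in SHRs and 1.87 ± 0.647 CPM (n = 18) in WKY rats of the NTS, 3.00 ± 1.06 and 1.66 ± 0.483 CPM in the CVLM, and 3.20 ± 1.32 and 1.93 ± 0.884 CPM in the RVLM. The mean log2 fold changes were 1.01 (SE 0.16, adjusted p = 8.93e-06), 0.84 (SE 0.16, adjusted p = 0.000177) and 0.80 (SE 0.19, adjusted p = 0.00235), or 2.02-, 1.79- and 1.74-fold. In the NTS 26 of 28 SHRs lay above the WKY median and 17 above every WKY rat of any age. These counts were 24 and 23 in the CVLM, where 1 SHR of 8 wk was below every WKY rat, and 25 and 5 in the RVLM.

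**Figure D3:**
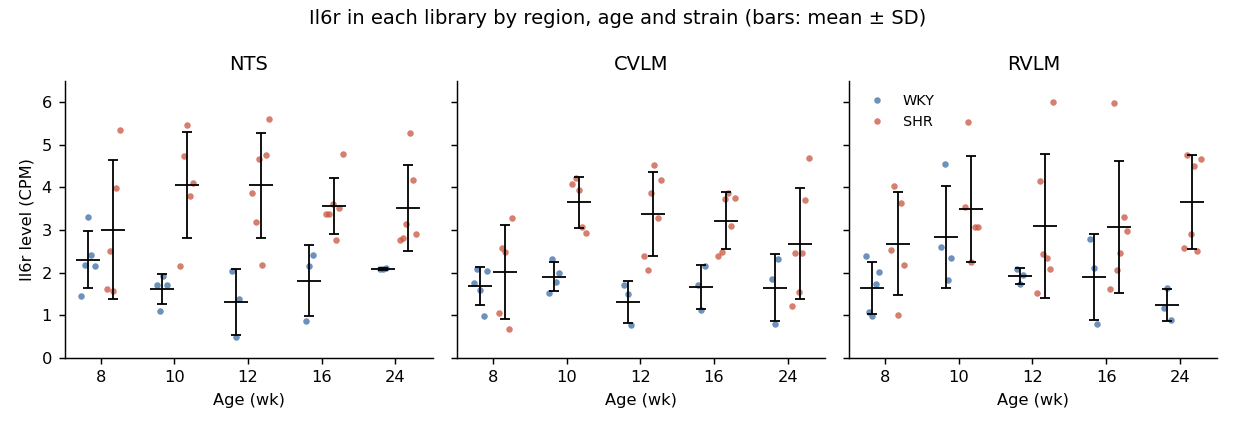
Il6r level in CPM (y axis) in each library by age in weeks (x axis) for WKY rats (blue) and SHRs (red) in the 3 regions, with black bars at the mean ± SD of each group. From 10 wk on, every SHR of the NTS lies above every WKY rat of its age, while at 8 wk the strains overlap in all 3 regions.

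At 8 wk the strains overlapped for Il6r in every region. The NTS held 1.63, 2.51, 1.56, 3.99 and 5.35 CPM in SHRs and 1.44, 2.18, 3.31, 2.42 and 2.15 CPM in WKY rats, with a log2 fold change of 0.32 (SE 0.33, adjusted p = 0.574). At 10 wk the SHRs had 2.16, 4.75, 5.47, 3.81 and 4.10 CPM and the WKY rats 1.70, 1.10, 1.92 and 1.72 CPM. No value overlapped, and the log2 fold change was 1.38 (SE 0.34, adjusted p = 0.0107), in a contrast with 4.44% of all genes called. At 12 wk the 6 SHRs ran from 2.19 to 5.62 CPM (median 4.27) above WKY values of 2.04, 0.494 and 1.39 CPM. This was the widest gap of the NTS, 1.66 on the log2 scale (SE 0.40, adjusted p = 0.00922), with 3.1% of all genes called. Each call rested on the lowest WKY value: without that rat the log2 fold change was 1.24 at 10 wk (adjusted p = 0.0528) and 1.25 at 12 wk (adjusted p = 0.177). With each age fitted alone the 12-wk difference was 1.65 and was not called (adjusted p = 0.164). The mean difference over ages stayed called in each of 28 fits without 1 rat. These fits left out WKY rats and SHRs of 8 and 10 wk, and no SHR of an older age.

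At 16 wk the Il6r range of NTS SHRs was 2.77 to 4.78 CPM (median 3.45), against 0.857, 2.16 and 2.42 CPM in WKY rats. At 24 wk it was 2.77 to 5.27 CPM (median 3.02), against 2.08, 2.09 and 2.12 CPM. Neither difference was called (0.98, SE 0.38, adjusted p = 0.388, and 0.73, SE 0.38, adjusted p = 0.412), although the strains did not overlap. Every SHR was thus above every WKY rat of its age at 4 of 5 ages in the NTS, at 3 in the CVLM (10, 12 and 16 wk) and at 1 in the RVLM (24 wk). Over all genes and ages, 2.68%, 3.09% and 2.69% of such comparisons had every SHR above every WKY rat.

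In the RVLM the Il6r difference at 8 wk was 0.68 on the log2 scale (SE 0.38, adjusted p = 0.239). At 10 wk the CVLM held 4.08, 4.21, 3.94, 3.08 and 2.93 CPM in SHRs and 1.51, 2.33, 1.78 and 1.99 CPM in WKY rats, and at 12 wk 2.06 to 4.52 CPM (median 3.57) against 1.70, 1.49 and 0.761 CPM. The log2 fold changes were 0.94 (SE 0.33, adjusted p = 0.157) and 1.32 (SE 0.40, adjusted p = 0.0622). CVLM SHRs of 10 wk were above those of 8 wk by 0.83 (SE 0.32, adjusted p = 0.0527), which was not called. It was called without the 2 CVLM libraries of 8 wk whose age label says 10 weeks (1.07, adjusted p = 0.0189). The replicate number as a block (0.88, adjusted p = 0.0318) and DESeq2 (0.81, adjusted p = 0.0418) also called it. Age and the library-name number cannot be told apart in this contrast. In the RVLM at 24 wk the SHRs had 2.5 to 4.76 CPM (median 3.71) and the WKY rats 1.18, 1.63 and 0.899 CPM, a log2 fold change of 1.55 (SE 0.47, adjusted p = 0.0724). A change of the Il6r strain difference with age was not called in any region (adjusted p = 0.444, 0.752 and 0.910), nor did it differ detectably between regions, the widest contrast being 0.24 on the log2 scale (SE 0.24, adjusted p = 0.755) between the NTS and the RVLM.

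Il6st encodes gp130, the partner chain, and its strain difference averaged over ages was not called. The log2 fold changes were 0.14 in the NTS (adjusted p = 0.53), 0.23 in the CVLM (adjusted p = 0.156) and 0.12 in the RVLM (adjusted p = 0.534), with standard errors of 0.10 each. At 24 wk in the CVLM, however, the WKY rats had 46.8, 53.4 and 41.4 CPM and the SHRs 58.5 to 129 CPM (median 87.6). The strains did not overlap, and SHRs were higher by 0.95 on the log2 scale (SE 0.24, adjusted p = 0.0117), where 7.13% of all genes were called and 5.05% had every SHR above every WKY rat. Without WKY rat 1 or 3 of that age it was 0.98 (adjusted p = 0.0626) or 0.87 (adjusted p = 0.09999). Among WKY rats of the CVLM, Il6st was 114 ± 23.7 CPM (n = 5) at 8 wk, 119 ± 15.6 (n = 4) at 10 wk, 64.6 ± 25.2 (n = 3) at 12 wk, 89.2 ± 20.3 (n = 3) at 16 wk and 47.2 ± 6.04 (n = 3) at 24 wk. The 24-wk level was below that of 8 wk by 1.22 on the log2 scale (adjusted p = 0.00261), where 13.7% of all genes were called for this contrast. At 12 wk the log2 fold change against 8 wk was -0.79 (SE 0.25, adjusted p = 0.0539) and was not called, while DESeq2 called it (-0.81, adjusted p = 0.0250). SHRs of the CVLM had 105 ± 17.7 CPM at 8 wk and 93.6 ± 25.5 CPM at 24 wk.

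For Il1r1, the signalling receptor of interleukin-1, no mean strain difference was called, with log2 fold changes of -0.06, 0.04 and 0.25 in the NTS, CVLM and RVLM (SE 0.15, 0.15 and 0.18, adjusted p = 0.905, 0.943 and 0.468). Its group means lay between 1.62 and 4.50 CPM. The lowest belonged to CVLM WKY rats of 24 wk, with 1.73, 2.04 and 1.10 CPM, against 5.16, 2.39, 3.32, 5.07 and 2.82 CPM at 8 wk. The difference of -1.15 on the log2 scale was called (SE 0.38, adjusted p = 0.0382), in the same contrast and the same libraries as the low Il6st. Leaving out rat 1 or 4 of 8 wk, or any rat of 24 wk, ended this call, at log2 fold changes of -1.02 and -1.01, or of -1.22, -1.34 and -0.95 for rats 1, 2 and 3 (adjusted p = 0.0650 and 0.108, or 0.0949, 0.0521 and 0.187). The call was also lost with the name number as a term (-1.07, adjusted p = 0.166), with the replicate number as a block (-1.10, adjusted p = 0.0613) and without the filter (-1.21, adjusted p = 0.0557).

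Tnfrsf1a, the main receptor of tumour necrosis factor, was not called on average over ages, with log2 fold changes of 0.08, 0.12 and 0.14 in the NTS, CVLM and RVLM (adjusted p = 0.696, 0.423 and 0.371). Its lowest SHR group means were those of 10 wk. In the NTS the SHRs had 11.2, 11.2, 13.9, 9.97 and 12.2 CPM at 8 wk and 8.25, 5.84, 6.71, 7.22 and 7.61 CPM at 10 wk. In the RVLM they had 16.1, 14.8, 14.2, 9.59 and 10.5 CPM at 8 wk and 7.46, 7.10, 8.07, 8.41 and 7.79 CPM at 10 wk. The log2 fold changes were -0.67 (adjusted p = 0.00417) and -0.72 (adjusted p = 0.00369), where 27.1% and 22% of all genes were called. All of the SHR libraries of 10 wk carry the name number 2 and none of 8 wk does, so that age and this number cannot be told apart within the strain. With the number as a term, estimated from the other groups, the log2 fold changes were -0.37 (adjusted p = 0.789) and -0.34 (adjusted p = 0.84). WKY rats of the NTS had 9.0 ± 1.48 CPM at 8 wk and 8.79, 8.40, 9.08 and 8.69 CPM at 10 wk, so that every SHR of 10 wk was below every WKY rat there (log2 fold change -0.25, SE 0.17, adjusted p = 0.476). Over all genes and ages, 6.08% of comparisons in the NTS had strains that did not overlap, in either direction.

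Tlr4, the lipopolysaccharide receptor, had mean log2 fold changes of -0.01, -0.04 and 0.05 between the strains in the NTS, CVLM and RVLM (SE 0.12, 0.16 and 0.15, adjusted p = 0.986, 0.941 and 0.892). The 95% intervals reached from -0.25 to 0.23 in the NTS, from -0.34 to 0.27 in the CVLM and from -0.24 to 0.34 in the RVLM. Its levels were 3.58 ± 0.955 CPM in SHRs and 3.64 ± 1.1 CPM in WKY rats of the NTS, 2.67 ± 0.913 and 2.71 ± 0.964 CPM in the CVLM, and 2.85 ± 0.896 and 2.76 ± 0.798 CPM in the RVLM. Group means ran from 2.16 to 4.51 CPM, and 0 of its single-age strain tests were called.

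Downstream of these receptors, the adaptor Myd88 had log2 fold changes of 0.01, 0.11 and 0.13 (SE 0.08, 0.09 and 0.09, adjusted p = 0.965, 0.558 and 0.398). Its level was 8.55 ± 1.47 CPM in SHRs and 8.44 ± 1.59 CPM in WKY rats of the NTS, 6.65 ± 1.51 and 6.16 ± 1.26 CPM in the CVLM, and 7.36 ± 1.32 and 6.61 ± 1.27 CPM in the RVLM. Any mean strain difference in the NTS was within -0.14 to 0.17 on the log2 scale (95% interval).

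Nfkbia, the NF-kappaB inhibitor, was higher in older WKY rats of the CVLM, while its mean strain difference was not called. The mean strain differences in the NTS, CVLM and RVLM were -0.01, -0.12 and -0.01 (SE 0.08, 0.10 and 0.10, adjusted p = 0.98, 0.512 and 0.972). WKY rats of the CVLM had 28.9, 23.0, 29.7, 22.8 and 27.4 CPM at 8 wk, 55.3, 55.7 and 25.3 CPM at 16 wk and 48.5, 47.0 and 67.6 CPM at 24 wk. Against 8 wk the log2 fold changes were 0.81 at 16 wk (SE 0.22, adjusted p = 0.0444) and 1.10 at 24 wk (SE 0.22, adjusted p = 0.00216), where 1.98% and 13.7% of all genes were called. Of the 3 rats of 16 wk, 1 was inside the 8-wk range. The 16-wk call was lost without rat 1 or 2 of 16 wk (0.65 and 0.64, adjusted p = 0.320 and 0.277), without rat 3, 4 or 5 of 8 wk (0.86, 0.77 and 0.83, adjusted p = 0.104, 0.128 and 0.101), and without SHR 4 of 8 wk or SHR 2 of 10 wk (0.81 each, adjusted p = 0.0506 and 0.0566). It was also lost without the 2 CVLM libraries of 8 wk whose age label says 10 weeks (0.83, adjusted p = 0.106), with the name number as a term (0.79, adjusted p = 0.352), without the filter on low expression (0.81, adjusted p = 0.0681), with RLE scaling (0.81, adjusted p = 0.05005), with the replicate number as a block (0.85, adjusted p = 0.0559) and without the 3 SHRs of high Il1b (0.81, adjusted p = 0.0550).

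WKY rats of the other regions had like values of Nfkbia. In the NTS they had 30.1, 29.5, 21.5, 25.0 and 28.6 CPM at 8 wk against 55.7, 50.3 and 36.5 CPM at 16 wk and 43.1, 51.5 and 49.9 CPM at 24 wk. Neither log2 fold change was called (0.80, SE 0.20, adjusted p = 0.267, and 0.79, SE 0.20, adjusted p = 0.0525). DESeq2 called the latter (adjusted p = 0.0109). For these contrasts 0% and 0.464% of all genes of the NTS were called. In the RVLM the log2 fold changes were 0.79 (adjusted p = 0.0863) and 0.67 (adjusted p = 0.129), with 0.209% and 0.179% of all genes called. In SHRs the log2 fold changes at 16 and 24 wk were -0.06 and 0.20 (NTS), 0.12 and 0.38 (CVLM) and 0.18 and 0.16 (RVLM), none called. The test of a strain difference that changes with age gave an unadjusted p of 0.0121 in the NTS and 0.0243 in the CVLM for Nfkbia (adjusted p = 0.378 and 0.358), so that the difference in course between the strains did not pass.

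**Figure D4:**
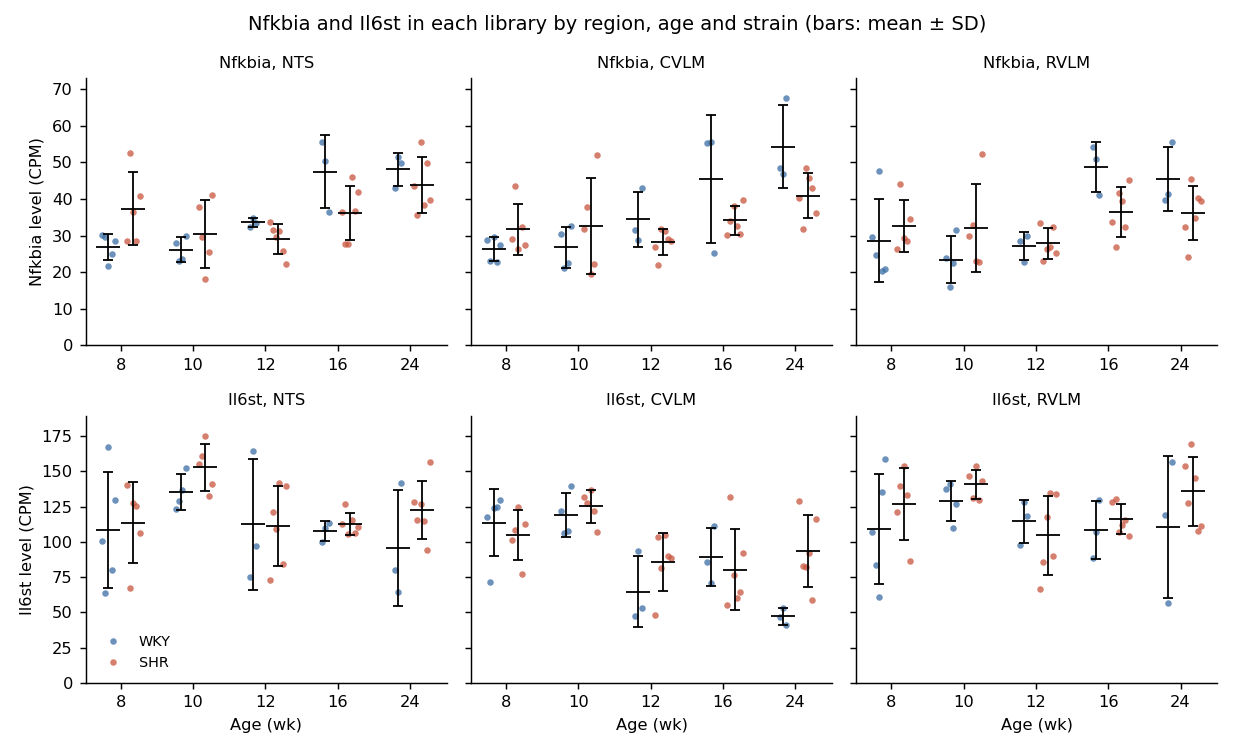
Nfkbia (upper panels) and Il6st (lower panels) level in CPM (y axis) in each library by age in weeks (x axis) for WKY rats (blue) and SHRs (red) in the 3 regions, with black bars at the mean ± SD. Nfkbia of WKY rats is at 36.5 CPM or more in all but 1 library of 16 and 24 wk, and Il6st of CVLM WKY rats is lowest at 24 wk, at 41.4 to 53.4 CPM.

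Levels differed between regions for most of the genes, as they did for most genes of the transcriptome. Comparing regions within a rat in 1 edgeR fit over all libraries, 5 of the 8 genes that passed the filter everywhere differed between the NTS and the CVLM, 6 between the NTS and the RVLM and 5 between the CVLM and the RVLM, against 65.9%, 72.7% and 54% of all genes. Tlr4, at mean levels of 3.6 CPM (NTS), 2.69 CPM (CVLM) and 2.81 CPM (RVLM), was higher in the NTS by 0.46 (SE 0.10, adjusted p = 8.36e-05) and 0.37 (SE 0.10, adjusted p = 0.000911) on the log2 scale. Its adaptor Myd88 had the same order, with 8.51, 6.45 and 7.07 CPM and NTS excesses of 0.43 (SE 0.05, adjusted p = 4.68e-11) and 0.29 (SE 0.05, adjusted p = 1.39e-06). The NTS was the higher of the pair in 38 of 46 rats against the CVLM and in 36 against the RVLM. Cell markers also differed between regions. In WKY rats, astrocyte markers summed to medians of 2260, 1559 and 1554 CPM in the NTS, CVLM and RVLM. Microglial markers had the same order (410, 318 and 334 CPM for WKY rats). Markers lowest in the NTS were those of oligodendrocytes (24232, 52206 and 43837 CPM), neurons (2965, 4415 and 4482) and endothelium (236, 299 and 334). The part of cell composition in the regional differences was not tested.

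Il18 fell from the NTS through the CVLM to the RVLM, at 6.46, 5.69 and 4.78 CPM. Its log2 differences were 0.25 between the NTS and CVLM (adjusted p = 0.00175) and 0.27 between the CVLM and RVLM (adjusted p = 0.00181). Receptors of interleukin-1 and tumour necrosis factor were highest in the RVLM. Il1r1 was there at 3.83 CPM against 2.95 in the NTS and 2.75 in the CVLM (log2 differences of -0.31 and -0.48, adjusted p = 0.00876 and 0.000138), and Tnfrsf1a at 10.9 CPM against 9.86 and 8.44 (-0.14 and -0.37, adjusted p = 0.00537 and 1.43e-10). Il6st was lowest in the CVLM, at 94.7 CPM against 118 in the NTS and 121 in the RVLM (0.38 and -0.42, adjusted p = 5.56e-08 and 4.45e-09). Il1b and Ccl2 each passed the filter only in the region of their highest mean, so that their regional values are given with no test: 0.981, 0.525 and 0.510 CPM for Il1b and 0.609, 0.997 and 0.671 CPM for Ccl2 in the NTS, CVLM and RVLM.

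**Figure D5:**
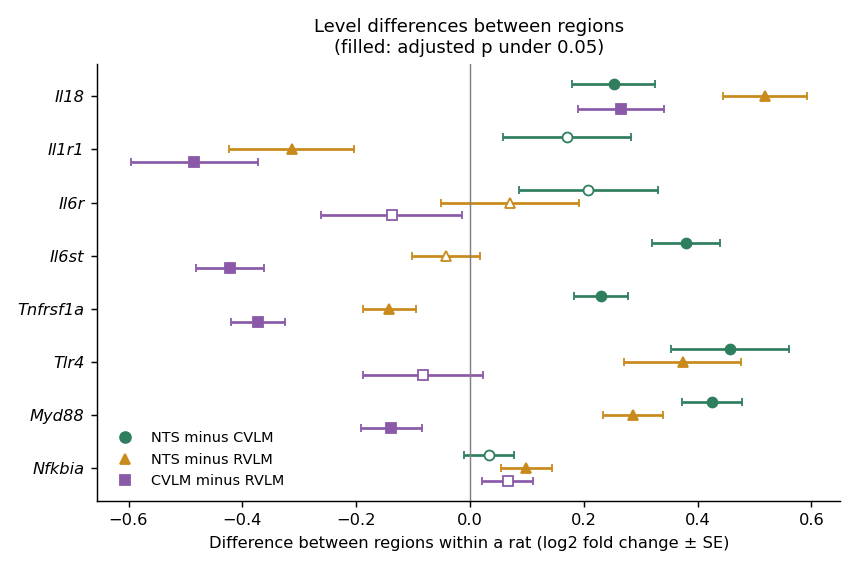
Log2 difference in level between pairs of regions within a rat (x axis, bars show ± SE) for the 8 genes that passed the filter everywhere, NTS minus CVLM (circles), NTS minus RVLM (triangles) and CVLM minus RVLM (squares), with filled symbols at an adjusted p under 0.05. Tlr4 and Myd88 lie to the right for both NTS comparisons, and no Il6r value is filled.

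Il6r was the exception among the receptors, with 2.95, 2.48 and 2.70 CPM in the 3 regions and no pair called (adjusted p = 0.128, 0.615 and 0.361). Nfkbia differed between the NTS and RVLM by 0.10 on the log2 scale (adjusted p = 0.0394), a call lost without the rat as a block (adjusted p = 0.256), with limma voom (0.0939) and without the 3 SHRs of high Il1b (0.0631). The CVLM to RVLM difference in Myd88, -0.14 (adjusted p = 0.0238), was lost without the filter (0.0576) and without the rat as a block (0.0511). Strain differences that themselves differed between regions were called for 0 of the 10 genes in each of the 3 pairs (0.449%, 1.82% and 0.32% of all genes), also by limma, and 1, 1 and 0 genes had an unadjusted p under 0.05, in both cases Il18. Of all 14043 genes, 1052, 1707 and 728 had an unadjusted p that low. Without the 3 SHRs of high Il1b, the Il18 strain difference in the NTS was below that in the RVLM by 0.56 on the log2 scale and was called (SE 0.15, adjusted p = 0.0265).

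The wider pathway was read from lists of 105 further genes of cytokines, receptors, TLRs, adaptors, NF-kappaB, the inflammasome and JAK-STAT signalling. Of those tested, 6 were higher and 6 lower in SHRs of 70 in the NTS, 4 and 4 of 67 in the CVLM, and 4 and 4 of 69 in the RVLM, on average over ages, where 11.2%, 12.3% and 10.8% of all genes were called in either direction. The median log2 fold change was 0.04, 0.02 and 0.03, beside 0.01, -0.003 and 0.01 over all genes tested. The 10 genes themselves had medians of 0.01, 0.11 and 0.13 over the 9, 9 and 8 that were tested.

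Of these genes, 4 were lower in SHRs in all 3 regions and 2 were higher. The share of all genes called in all 3 regions is not given here, and the regions came from the same rats. The count is therefore only a description. Traf6, the ubiquitin ligase that carries MyD88 signals onward, fell by 0.82, 0.72 and 0.79 on the log2 scale in the NTS, CVLM and RVLM (adjusted p = 5.55e-11, 5.95e-08 and 8.63e-09), from 15.9 to 8.96 CPM in the NTS. Il33, an interleukin-1 family alarmin, fell by 0.57, 0.50 and 0.70, and Stat3, which gp130 activates, fell by 0.47, 0.58 and 0.48. Tradd, an adaptor of the tumour necrosis factor receptor, fell by 0.36, 0.38 and 0.27. In the other direction, Casp4, an inflammatory caspase, was higher by 1.00, 0.89 and 1.03 (adjusted p = 1.20e-09, 2.10e-08 and 1.23e-09), and Ltbr, the lymphotoxin receptor, was higher by 0.64, 0.61 and 0.58. In the NTS Il1rl1, the receptor of interleukin-33, fell by 0.98 on the log2 scale (adjusted p = 5.96e-06), and Irak4, the kinase that MyD88 recruits, fell by 0.33 (adjusted p = 0.00759). Higher there were Nfkbiz, an atypical IkB protein, by 0.61, and Nfkb2, an NF-kappaB subunit, by 0.56 (adjusted p = 0.0235 and 0.0103). Tab3, which links Traf6 to the kinase Map3k7, was higher by 0.54 in the NTS and 0.42 in the CVLM (adjusted p = 0.000782 and 0.0200), as was Tlr3, a sensor of double-stranded RNA, by 0.33 and 0.30 (adjusted p = 0.0446 and 0.0203). The remaining calls were in the RVLM, where the cytokine gene Il16 and the deubiquitinase gene Cyld were higher by 0.39 and 0.33 (adjusted p = 0.0344 and 0.00693).

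Cell markers gave the setting of these values. Microglial markers summed to medians of 425 CPM in SHRs and 410 CPM in WKY rats of the NTS, 325 and 318 in the CVLM, and 347 and 334 in the RVLM. Of the 10 microglial genes, 1, 0 and 1 were called higher and 1, 2 and 1 lower in SHRs of the NTS, CVLM and RVLM, with Tmem119 lower in each. None of the 4 neutrophil or 4 T-cell markers passed the filter in any region. Ependymal markers in the NTS were lower in SHRs, with a median sum of 6.98 against 15.5 CPM, and their part in the NTS values was not tested.

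For the 8 genes tested everywhere, the genes of most similar variation between rats were sought by Pearson's r of log2 CPM after removing the group means, over 46 libraries per region, as a mean of 3 regions. The points share library depth and punch composition, and the values are a description. Il6st varied most like Aplp2 (r = 0.82), Zdhhc17 (0.79) and Adam10 (0.78), and Il1r1 most like Abcb1a, Prom1 and Ptprb (0.64, 0.64 and 0.62). Il6r was near to Foxj2 and Man2a2 (0.64 and 0.63), with lower values in the CVLM (0.35 and 0.48) than in the other regions. Il18 was nearest to Mrpl50, Cd302 and Uqcrb (0.68, 0.66 and 0.65), Tnfrsf1a to Dolpp1, Pltp and Slc9a3r1 (0.55, 0.54 and 0.53), and Nfkbia to Plekhf1, Sgk1 and Phactr3 (0.64, 0.61 and 0.58). Tlr4 was nearest to Entpd1, Slc15a2 and Aqp4 (0.54, 0.51 and 0.50), and Myd88 to Gfap, Mxra8 and Cbs (0.47 each).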

How the data were processed

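RNA of 46 female rats, 18 WKY and 28 SHRs in 5 age groups, was sequenced from 3 brainstem regions (NTS, CVLM and RVLM). The authors mapped reads to rn6 and deposited 1 table of RSEM expected counts per region, which were rounded here to whole numbers. Of the deposited values, 5.02, 4.95 and 4.88% (NTS, CVLM and RVLM) were not whole, and whether the authors' ComBat_seq batch adjustment is in the tables could not be told. Of the CVLM libraries, 2 carry an age label of 10 weeks but an 8-week title, and were placed by title.

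Genes with a largest rlog value of at least 3.5 in a region were tested (13793, 13408 and 13411 genes) with edgeR 4.0.16 (R 4.3.3) by its quasi-likelihood test on 10 strain and age groups with TMM scaling, with Benjamini-Hochberg adjustment over all genes and a threshold of 0.05. Regions were compared in 1 fit over all libraries with the rat as a block. DESeq2 1.42.0, limma voom 3.58.1, other scaling, no filter, a replicate block, the library-name number as a term and leaving out rats were alternatives. Rats were left out 1 at a time only from groups of 5 or fewer, in 28 fits per region. SHRs of 12, 16 and 24 wk, in groups of 6, were not left out in this way. Libraries held 5904570 to 17889406 counts, and low counts limit the precision for Il1b and Ccl2. Replicates are separate rats. Beyond the 10 genes, the rule for naming took, per region, called genes of the pathway lists, at most 8 by size of log2 fold change, and for each gene tested in all 3 regions the 3 with the highest r (some results under these rules are not reported here). Called genes beyond these (Irak4 and Tlr3 in the NTS) were named after their values were seen. The genes, lists and tests were chosen with earlier results of these data known.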

Additional observations from a re-analysis of the deposited data

Results flagged for a closer look

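In groups of 4 to 10 libraries, a library was singled out where its gap to the nearest other was large for the group's range by Dixon's 95% criterion. Chance singles out about 1 in 20 groups, and 11 of 210 groups (5.24%) met it here. For Il1b these were SHR rat 2 of 24 wk in the NTS, at 5.70 CPM against 1.57 CPM in the next library, and in the CVLM, at 2.98 against 0.961 CPM, and SHR rat 3 of 10 wk in the RVLM, at 0.448 against 0.0749 CPM, which rested on 6 counts. Il1r1 was high in SHR rat 5 of 8 wk in the NTS (6.34 against 3.01 CPM), in SHR rat 1 of 24 wk in the NTS (5.26 against 2.77 CPM) and in SHR rat 4 of 16 wk in the RVLM (6.07 against 3.57 CPM).

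Il18 was high in the same SHR, rat 1 of 12 wk, in the NTS (9.93 against 6.70 CPM) and the RVLM (11.7 against 5.58 CPM). Its CVLM value of 6.96 CPM was inside the range of its group. Il6st was low in WKY rat 2 of 8 wk in the CVLM (71.8 against 118 CPM), Tlr4 was low in SHR rat 3 of 12 wk in the NTS (1.73 against 3.31 CPM), and Myd88 was high in SHR rat 6 of 12 wk in the RVLM (8.34 against 7.10 CPM).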

How the results depend on the processing

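The mean strain difference in Il6r kept its direction and its call in every region under the alternatives run for it. These were RLE scaling, no filter, replicate block, number term, limma voom, DESeq2, and each rat or library that was left out. Rats were left out 1 at a time only from groups of 5 or fewer, so not from SHRs of 12, 16 or 24 wk. The stricter rule was not run for the mean, and the CVLM and RVLM values are under its 2-fold limit. Deviations of same-numbered rats of the strains had r over 0.1 in 32 of 54 pairs (median 0.149, range -0.332 to 0.553). Whether the numbers pair the rats cannot be decided from this, because no r of differently numbered rats is given for comparison. The numbers were those of the sample titles, which for WKY rats of 8 wk differ from those in the library names. With the replicate block, 1 strain difference at a single age was called in the RVLM instead of 0 (Il6r at 24 wk, 1.47, adjusted p = 0.0298), as with DESeq2 (1), and the calls of Nfkbia at 16 wk (0.85, adjusted p = 0.0559) and Il1r1 at 24 wk (-1.10, adjusted p = 0.0613) in WKY rats of the CVLM were lost. Main counts of single-age strain calls were 2 (NTS), 1 (CVLM) and 0 (RVLM). They were 1 in the NTS and 2 in the CVLM with each age fitted alone, 2 in the CVLM with DESeq2, and 1 and 0 under the stricter rule (adjusted p up to 0.01, at least a 2-fold change). Leaving out 1 rat gave 1 to 2 in the NTS and 0 to 2 in the CVLM. Age calls were 1, 4 and 1 in these regions. They became 2 in the NTS with RLE scaling, DESeq2 or without the 3 SHRs. In the CVLM, DESeq2 added calls of Il6st in WKY rats at 12 wk (-0.81, adjusted p = 0.0250) and Il6r in SHRs at 10 wk (0.81, adjusted p = 0.0418). With the library-name number as a term, age calls were 0 in the NTS and RVLM and 2 in the CVLM. They were 2 in the CVLM without the filter, and 1 to 2 (NTS) and 2 to 5 (CVLM) with 1 rat left out. A strain difference that itself differed between the NTS and RVLM was called for 1 of the 10 genes, instead of 0, without the 3 SHRs of high Il1b, an alternative added after seeing the data.

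Reversals touched only mean strain differences that were not called and lay within 0.07 of 0. Tlr4 was 0.014 in the NTS with the number as a term, and 0.0053 in the NTS and 0.040 in the CVLM without the 3 SHRs, Nfkbia was 0.0058 in the RVLM without them, and Il1r1 was -0.0090 in the CVLM with limma voom. With 1 rat left out, Tlr4 ran from -0.050 to 0.040 (NTS), -0.10 to 0.067 (CVLM) and -0.021 to 0.12 (RVLM), Nfkbia from -0.042 to 0.025 (NTS) and -0.059 to 0.037 (RVLM), Il1r1 from -0.13 to 0.046 (NTS) and -0.0069 to 0.084 (CVLM), and Myd88 from -0.0043 to 0.046 (NTS). No SHR older than 10 wk was among the rats left out 1 at a time. The causes of the reversals were not tested. Depth limits Il1b and Ccl2, where 64 and 19 libraries had 3 counts or fewer.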
